A study of Homo sapiens with 12 samples.

Results

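The mitochondrial ribosomal protein genes are the nuclear genes that encode the protein subunits of the mitochondrial ribosome. They were taken here as the protein-coding genes whose symbol is MRPL or MRPS followed by a number and at most 1 letter. The rule found 78 genes among the 42342 genes with counts in the MP38 table and 77 among the 44938 in the 92.1 table, out of 48283 genes in either. Of the 78, 51 encode proteins of the large subunit, 26 encode proteins of the small subunit, and 1, MRPS36, encodes a protein now assigned to the 2-oxoglutarate dehydrogenase complex and not to the ribosome. MRPS18A and MRPS30 were placed with the large subunit, where their proteins are found despite the symbols.

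Poly(A) RNA was sequenced from MP38 and 92.1, established human uveal melanoma cell lines, after 72 h with DMSO, the solvent, or with VE-822 (berzosertib), an inhibitor of the replication stress kinase ATR. There were 4 groups of 3 libraries, 12 in all: MP38 with DMSO, MP38 with VE-822, 92.1 with DMSO and 92.1 with VE-822. The dose is not given in the sources used here and was set in each line so that about 40% of cells stayed viable, so dose and line cannot be told apart. The labels do not state separate cultures for the replicates, so p-values here measure the spread between libraries, possibly a technical one.

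The mitochondrial ribosome translates the few messenger RNAs encoded in mitochondrial DNA, all of which specify subunits of the respiratory chain and ATP synthase. Its ribosomal RNAs are made inside the organelle, whereas its proteins are made in the cytosol from nuclear genes and imported. Some of these proteins have counterparts in bacterial ribosomes, and others were added in the mitochondrial lineage and are called mitochondrion-specific here. MRPS18A and MRPS18B are related to bacterial S18 but lie at other sites, and they were counted as mitochondrion-specific.

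Promoters of the members were read from RefSeq (GRCh38.p14), as 250 bases before to 50 bases after the first listed start of each gene. Of the 78 members, 69 had an entry, and MRPL2, MRPL10, MRPL13, MRPL15, MRPL21, MRPL23, MRPL35, MRPS28 and MRPS36 had none. Core motifs of 3 factors known for nuclear genes of mitochondria were searched on both strands: CCGGAAG for ETS factors such as GABPA, AAGATGGC for YY1, and the palindromic core motif of NRF1. The ETS motif ends with the letters that begin the YY1 motif, so matches of the pair can overlap, and a window could hold more than 1 motif. The ETS motif was found in 29 of the 69 member promoters (42.0%), against 14.2% of 15843 promoters of protein-coding genes. The YY1 motif was found in 20 (29.0%), against 3.91%. NRF1 was matched without a mismatch in 1 (1.45%), against 1.75%. Counting any of the 3 motifs, 42 member promoters (60.9%) held a match, against 18.5% of protein-coding promoters and 14.1% of all 27305 promoters. Another protein-coding gene started within 1000 bases on the opposite strand at 18 member promoters (26.1%), against 10.3% of protein-coding promoters, and MRPL46 and MRPS11 shared 1 such region.

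The 250 bases before the start are shown for 4 of the members named below, 5′ to 3′ on the gene's strand, with motif matches in capitals. MRPL47, MRPL52 and MRPL54 are 3 of the largest increases in MP38, and MRPL11 is the second largest decrease in 92.1.
MRPL47 (chr3:179604639-179604888, strand minus): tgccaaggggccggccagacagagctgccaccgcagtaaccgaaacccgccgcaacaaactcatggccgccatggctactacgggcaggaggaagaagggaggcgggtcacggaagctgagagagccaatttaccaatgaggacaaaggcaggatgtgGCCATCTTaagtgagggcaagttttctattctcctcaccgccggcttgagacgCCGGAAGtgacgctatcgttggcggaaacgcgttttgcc
MRPL52 (chr14:22829637-22829886, strand plus): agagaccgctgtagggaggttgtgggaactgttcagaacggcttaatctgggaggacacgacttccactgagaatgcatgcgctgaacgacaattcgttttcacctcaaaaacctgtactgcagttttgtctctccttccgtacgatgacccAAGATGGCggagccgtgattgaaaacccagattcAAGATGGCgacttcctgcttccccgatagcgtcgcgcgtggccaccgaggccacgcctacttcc
MRPL54 (chr19:3762432-3762681, strand plus): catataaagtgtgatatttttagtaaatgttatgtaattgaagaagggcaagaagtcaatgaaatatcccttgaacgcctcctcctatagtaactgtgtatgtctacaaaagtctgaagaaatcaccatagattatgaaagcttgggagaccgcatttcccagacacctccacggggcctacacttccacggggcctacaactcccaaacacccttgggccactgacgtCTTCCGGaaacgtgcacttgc
MRPL11 (chr11:66438849-66439098, strand minus): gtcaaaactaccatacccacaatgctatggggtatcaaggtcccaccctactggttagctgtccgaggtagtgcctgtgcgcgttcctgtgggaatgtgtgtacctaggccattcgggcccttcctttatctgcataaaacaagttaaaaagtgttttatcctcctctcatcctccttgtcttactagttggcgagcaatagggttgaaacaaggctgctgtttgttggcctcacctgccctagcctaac
In MRPL47 the YY1 motif begins 92 bases before the start, in reverse orientation, and the ETS motif 39 bases before it. MRPL52 carries the YY1 motif at 98 and again at 64 bases before the start. It also carries an ETS match that does not lie wholly within the bases shown and is not marked. MRPL54 carries the ETS motif in reverse orientation at 21 bases. The MRPL11 window holds none of the 3 motifs. Neither does that of MRPL39, the largest increase in MP38, while that of MRPS34, called lower in 92.1, holds an ETS match. The 4 promoters shown thus do not link a motif to a direction. A match is a description of these letters only, and binding was not measured. By response, the ETS motif was in 16 of 35 promoters of members called higher in MP38 and in 9 of 23 of those called lower in 92.1, and the YY1 motif was in 12 and 7 of them. Of the 5 promoters of members called lower in MP38, 3 held the ETS motif and 0 the YY1 motif. Over all 69 member promoters, 29 held ETS and 20 held YY1.

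Total counts were 54415628 to 63638976 per library in MP38 and 112374503 to 137664800 in 92.1. The 7 melanocyte marker genes summed to 4423 to 4595 CPM (counts per 1e6, with library totals scaled by TMM) in MP38 DMSO and 5452 to 5470 in VE-822, and to 18820 to 19040 and 19640 to 19920 in 92.1. The sum of 3 endothelial markers was 2.11 to 2.89 CPM in MP38 DMSO and 2.91 to 3.76 in VE-822, and 0.0457 to 0.0831 and 0.274 to 0.466 in 92.1. Both sums were higher in all treated libraries of each line, while epithelial and immune markers stayed under 1 CPM in every library. Single melanocyte markers were mixed, with 3 called higher and 3 lower in MP38. In 92.1 they were 1 and 2, or 2 and 3 without DMSO library 3. MITF and DCT were lower in both lines. The MP38 endothelial sum was mostly VWF (2.24 to 3.16 CPM), while PECAM1 went from 0.121 to 0.0930 CPM. The part of these shifts in the results below was not tested. In 92.1, DMSO library 3 stood apart from the other 5 libraries on the second principal component, which held 14% of the variance. Counts of calls in 92.1 are therefore given with and without it.

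In untreated cells the members ranged widely in level and ranked alike in the lines. Levels are compared between genes in FPKM, counts scaled for gene length and library total, as mean ± SD over 3 DMSO libraries. In MP38, MRPL41, a mitochondrion-specific protein of the large subunit, was highest at 128.7 FPKM ± 2.01. MRPS21, the counterpart of bacterial S21, followed at 80.5 ± 2.37, and the mitochondrion-specific MRPS35 at 68.5 ± 0.432. These 3 levels did not overlap within their SDs.

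In 92.1 the highest member was MRPL15, a large-subunit protein with a bacterial counterpart, at 65.1 FPKM ± 2.74. MRPL41 followed at 58.9 ± 1.61 and MRPS34, a mitochondrion-specific protein of the small subunit, at 55.6 ± 6.92; the last 2 did not differ beyond their spread. At the low end, MRPL46, a mitochondrion-specific large-subunit protein, had 1.26 FPKM ± 0.0695 in MP38 and 0.862 ± 0.111 in 92.1. MRPS24, the counterpart of bacterial S3 and thus a core protein, was listed lower still, at 0.111 FPKM ± 0.0507 in MP38 and 0.276 ± 0.0826 in 92.1. Across the 77 members in both tables the log2 DMSO levels had a Pearson r of 0.896 and a Spearman rho of 0.871 between lines, a description over genes that share libraries, length scaling and annotation.

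**Figure D1:**
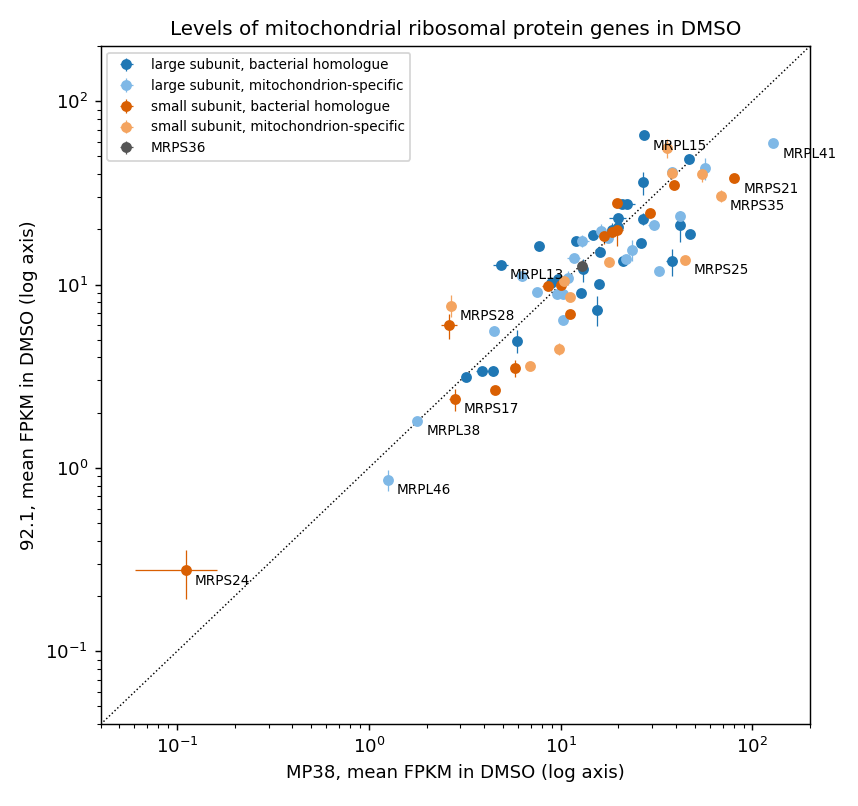
Mean FPKM in DMSO of 77 mitochondrial ribosomal protein genes in MP38 (x, log axis) and 92.1 (y, log axis), 1 point per gene, bars the SD over 3 libraries and the dotted line equal levels. MRPL41 lies at the top right (128.7 and 58.9), MRPL15 is the highest in 92.1 (65.1), and MRPS24 lies apart at the bottom left (0.111 and 0.276).

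MRPL53, another mitochondrion-specific large-subunit gene, had 2 counts in DMSO library 1 of MP38 and 0 in the other 5 libraries, so it was in no test. It was not in the 92.1 table. In GENCODE v29, which is not known to be the authors' annotation, 45.2% of its exonic bases were shared with CCDC142 on the same strand, a gene with 1384 to 1623 counts in MP38. The 37 members with no exonic base shared with another gene had a median of 18.6 FPKM in MP38 DMSO, against 10.6 for the 40 members with less than 50% shared. MRPS24 shared 23.2% with a read-through transcript, MRPL38 41.1%, MRPS17 27.0%, and MRPL12 68.2%, the most of all. In MRPS24, MRPS17 and MRPL12 all of these bases were shared on the same strand, and in MRPL38 37.5% were. Counting by strand could not separate such bases. How shared bases bear on these levels was not tested, and values of such genes are uncertain because the handling of shared bases in counting is not stated.

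The members took a larger share of all counts after VE-822 in MP38 and a smaller one in 92.1. In MP38 the share was 0.378%, 0.374% and 0.368% in the DMSO libraries and 0.407%, 0.414% and 0.409% in the VE-822 libraries, or 0.373% ± 0.00539 (SD, n = 3) and 0.410% ± 0.00340. All 3 treated libraries lay above all 3 controls, at 1.099 times their mean. In 92.1 the share was 0.312%, 0.313% and 0.301% in DMSO and 0.296%, 0.293% and 0.294% in VE-822, or 0.309% ± 0.00631 and 0.294% ± 0.00198. The treated libraries lay below all controls there, at 0.953 times their mean, and DMSO library 3 was the control nearest to them. A share is relative to all other RNA, and in bulk samples fewer cells of a kind and less RNA per cell cannot be told apart. Mitochondrially encoded genes themselves took 7.02% of counts in MP38 DMSO and 8.59% in VE-822, and 9.23% and 10.4% in 92.1.

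**Figure D2:**
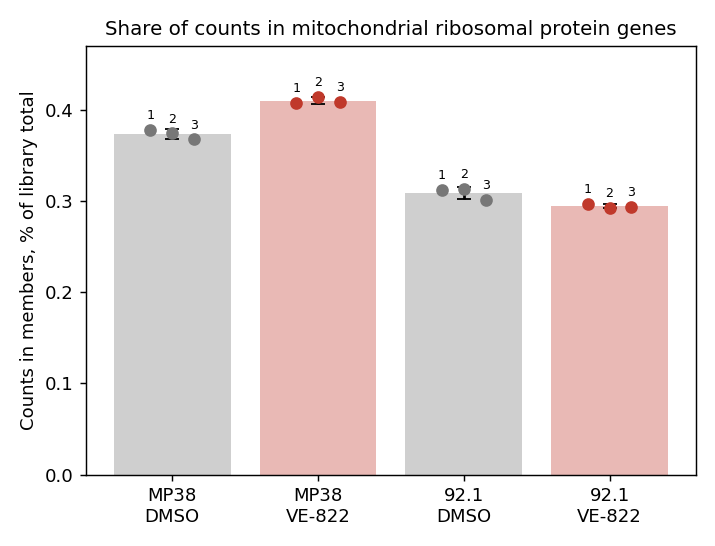
Share of a library's counts in the mitochondrial ribosomal protein genes (y, percent), with bars at the group mean, error bars the SD over 3 libraries and a numbered point per library. The mean went from 0.373% to 0.410% with VE-822 in MP38 and from 0.309% to 0.294% in 92.1, with no overlap between treated and control libraries in either line.

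In MP38, most members were higher after VE-822, the majority of these in the large subunit. Of 77 members tested, 43 were called higher (edgeR quasi-likelihood test, Benjamini-Hochberg adjusted p under 0.05 over all genes) and 5 lower, and 29 were not called. Among all 21415 genes tested, 26.9% were called higher and 25.4% lower, and among protein-coding genes 33.6% and 29.2%. The median log2 fold change (VE-822 over DMSO) was 0.15 over the members, from -0.31 to 0.77, against -0.01 over all genes. Changes were modest: 11 of the increases were at least 0.5 on the log2 scale and none reached 1. Of all genes tested, 11.1% and 4.57% were called higher at those sizes. In 42 of the 43 increases the 3 VE-822 libraries lay above the 3 DMSO libraries, and in the 5 decreases they lay below. This describes genes already called, so it adds no support to the calls, and its share over all genes was not counted.

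In the large subunit no member was called lower in MP38, except 1 when library sizes alone were used. It had 32 of 50 tested members higher, with a median of 0.25, against 33.6% of protein-coding genes called higher. Its 29 proteins with bacterial counterparts had 19 higher and a median of 0.26, and its 21 mitochondrion-specific ones 13 higher and a median of 0.24. With library sizes alone in place of TMM scaling 29 were higher.

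The small subunit was mixed. It had 10 of 26 members higher and 5 lower, with a median of 0.09. Of protein-coding genes, 33.6% were called higher and 29.2% lower, so the increases in the small subunit were near that share. Of its 15 proteins with bacterial counterparts 8 were higher and 1 lower, and of its 11 mitochondrion-specific proteins 2 were higher and 4 lower. No test compared the subunits with each other.

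MRPL39, a mitochondrion-specific protein of the large subunit, had the largest increase in MP38. Its level was 19.6, 20.0 and 18.1 CPM in DMSO and 33.5, 32.7 and 32.2 CPM in VE-822, a log2 fold change of 0.77 ± 0.0497 (SE, adjusted p = 6e-11). MRPL54, likewise mitochondrion-specific, had 22.4, 20.8 and 20.6 CPM in DMSO and 33.7, 33.8 and 38.5 CPM in VE-822, a log2 fold change of 0.73 ± 0.0554 (adjusted p = 6.74e-10). In both genes the lowest treated library was far above the highest control. MRPL52, whose promoter holds the repeated YY1 motif, went from 30.6 CPM ± 0.628 to 50.7 ± 2.47 (log2 fold change 0.73).

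MRPL23 and MRPL47 encode the counterparts of bacterial L23 and L29, which lie around the exit of the tunnel through which the new protein leaves. MRPL23 had 10.6, 11.6 and 12.2 CPM in DMSO and 17.4, 18.7 and 18.8 CPM in VE-822 (log2 fold change 0.68 ± 0.0631, adjusted p = 1.6e-08). MRPL47 had 29.4, 27.1 and 24.0 CPM in DMSO and 40.4, 40.8 and 44.7 CPM in VE-822 (0.64 ± 0.0596, adjusted p = 1.38e-08). The DMSO libraries of MRPL47 were spread more widely than those of the genes above, yet all lay below the treated ones.

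MRPS7, the counterpart of bacterial S7 in the head of the small subunit, was the small-subunit gene with the largest increase. It had 57.5, 54.8 and 54.4 CPM in DMSO and 84.1, 84.3 and 91.0 CPM in VE-822 (log2 fold change 0.64 ± 0.0416, adjusted p = 7.45e-11), with the groups far apart. All 5 members called lower in MP38 belong to the small subunit. MRPS2, the counterpart of bacterial S2, had 47.7, 48.2 and 47.4 CPM in DMSO and 36.1, 39.2 and 40.4 CPM in VE-822 (-0.31 ± 0.0445, adjusted p = 6.58e-06).

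The other 4 decreases were in mitochondrion-specific proteins of the small subunit. MRPS25, the most abundant of them in MP38 DMSO (44.5 FPKM ± 1.17), had 230, 236 and 243 CPM in DMSO and 193, 191 and 189 CPM in VE-822 (log2 fold change -0.31 ± 0.0365, adjusted p = 5.42e-07). MRPS26 followed at -0.24 (adjusted p = 0.000803), MRPS31 at -0.17 (adjusted p = 0.0154) and MRPS33 at -0.12 (adjusted p = 0.0251). The MRPS33 call was lost on leaving out 1 of 4 libraries in turn (DMSO libraries 1 and 3 and VE-822 libraries 1 and 2, adjusted p 0.0673 to 0.109), and the MRPS31 call without DMSO library 1 or VE-822 library 2 (0.0583 and 0.116) and with limma on log2(FPKM + 1) (0.0521).

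In 92.1 the members moved the other way, in smaller numbers. Of 77 tested, 2 were called higher, 27 lower, and 48 were not called. Among all 22943 genes tested 20.3% were called higher and 19.6% lower, and among protein-coding genes 22.4% and 27.4%. The median log2 fold change was -0.14 over the members, from -0.58 to 0.28, against 0.03 over all genes, and 2 decreases were at least 0.5 on the log2 scale. Of all genes tested, 7.88% were called lower at that size. In 26 of the 27 decreases the VE-822 libraries lay below all DMSO libraries, which again only describes genes already called.

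The number of members called in 92.1 changed with DMSO library 3 and with the scaling. Without that library, 5 were higher and 55 lower, with a median of -0.20, against 26.8% and 29.0% of all genes. With library sizes alone 6 were higher and 14 lower, against 24.8% and 15.4% of all genes, and the calls over all genes went from 4658 higher and 4498 lower to 5684 and 3534. Fewer members were also called lower without VE-822 library 2 (13) or VE-822 library 3 (14). More members were called lower than higher in each of these fits.

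Members of both subunits were called lower in 92.1. The large subunit had 19 of 50 members lower and 1 higher (median -0.14), and the small subunit 8 of 26 lower and 1 higher (median -0.14). Proteins of the large subunit with bacterial counterparts had 14 of 29 lower and 0 higher, the mitochondrion-specific ones 5 of 21 lower and 1 higher. In the small subunit 3 of 15 and 5 of 11 were lower. For comparison, 27.4% of protein-coding genes were called lower. With library sizes alone the large subunit had 9 lower and 2 higher and the small subunit 5 lower and 3 higher. Without DMSO library 3 the large subunit had 38 lower and 3 higher and the small subunit 17 lower and 2 higher.

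MRPL1, the protein of the mobile L1 stalk beside the exit site for transfer RNA, had the largest decrease in 92.1. It had 14.4, 15.3 and 15.4 CPM in DMSO and 10.1, 10.5 and 9.53 CPM in VE-822 (log2 fold change -0.58 ± 0.0667, adjusted p = 0.000225). In MP38 the same gene went from 20.5 CPM ± 0.667 to 21.5 ± 1.08 and was not called (log2 fold change 0.07, adjusted p = 0.322). The groups were apart in 92.1 and overlapped in MP38.

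MRPL11, at the base of the stalk that binds elongation factors, was called in opposite directions. In 92.1 it had 52.7, 53.7 and 53.4 CPM in DMSO and 38.3, 35.9 and 35.7 CPM in VE-822 (log2 fold change -0.54 ± 0.0510, adjusted p = 7.5e-05). In MP38 it had 49.5 to 50.6 CPM in DMSO and 53.4, 56.7 and 60.1 CPM in VE-822 (0.18 ± 0.0438, adjusted p = 0.00159). The controls of the lines were thus close in level, and the treated libraries lay on either side of them.

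MRPS34 had 66.3, 66.9 and 53.5 CPM in DMSO and 45.9, 46.5 and 48.9 CPM in VE-822 in 92.1 (log2 fold change -0.40 ± 0.0855, adjusted p = 0.00593). The control nearest to the treated libraries was DMSO library 3, and without it the log2 fold change was -0.53. MRPL23, which rose in MP38, fell in 92.1 from 10.3 CPM ± 0.0850 to 7.78 ± 0.492 (log2 fold change -0.40, adjusted p = 0.00239). MRPL37, mitochondrion-specific, fell from 61.8 CPM ± 1.10 to 46.9 ± 0.748 (-0.40, adjusted p = 0.000218), and MRPL2, the counterpart of bacterial L2 near the peptidyl transferase centre, from 6.99 ± 0.282 to 5.40 ± 0.0667 (-0.37, adjusted p = 0.00381).

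Only MRPL41 and MRPS21 were called higher in 92.1, and they were also the 2 most abundant members by FPKM in MP38 DMSO. MRPL41 had 35.2, 36.0 and 34.3 CPM in DMSO and 41.8, 38.3 and 40.6 CPM in VE-822 (log2 fold change 0.19 ± 0.0551, adjusted p = 0.0222). MRPS21 had 57.6, 58.2 and 59.2 CPM in DMSO and 68.2, 64.2 and 61.7 CPM in VE-822 (0.15 ± 0.0517, adjusted p = 0.0471). The groups did not overlap in either gene, but neither call held in every fit. Without DMSO library 1 the adjusted p was 0.0929 for MRPL41 and 0.182 for MRPS21, without VE-822 library 1 it was 0.105 and 0.208, and MRPS21 was at 0.111 with DESeq2 and at 0.0889 with RLE size factors. With no filter on low counts the adjusted p was 0.109 for MRPL41 and 0.239 for MRPS21. Without DMSO library 2 (0.0516 and 0.137) or VE-822 library 3 (0.0789 and 0.0509) neither was called, and MRPS21 was also not called without VE-822 library 2 (0.139).

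**Figure D3:**
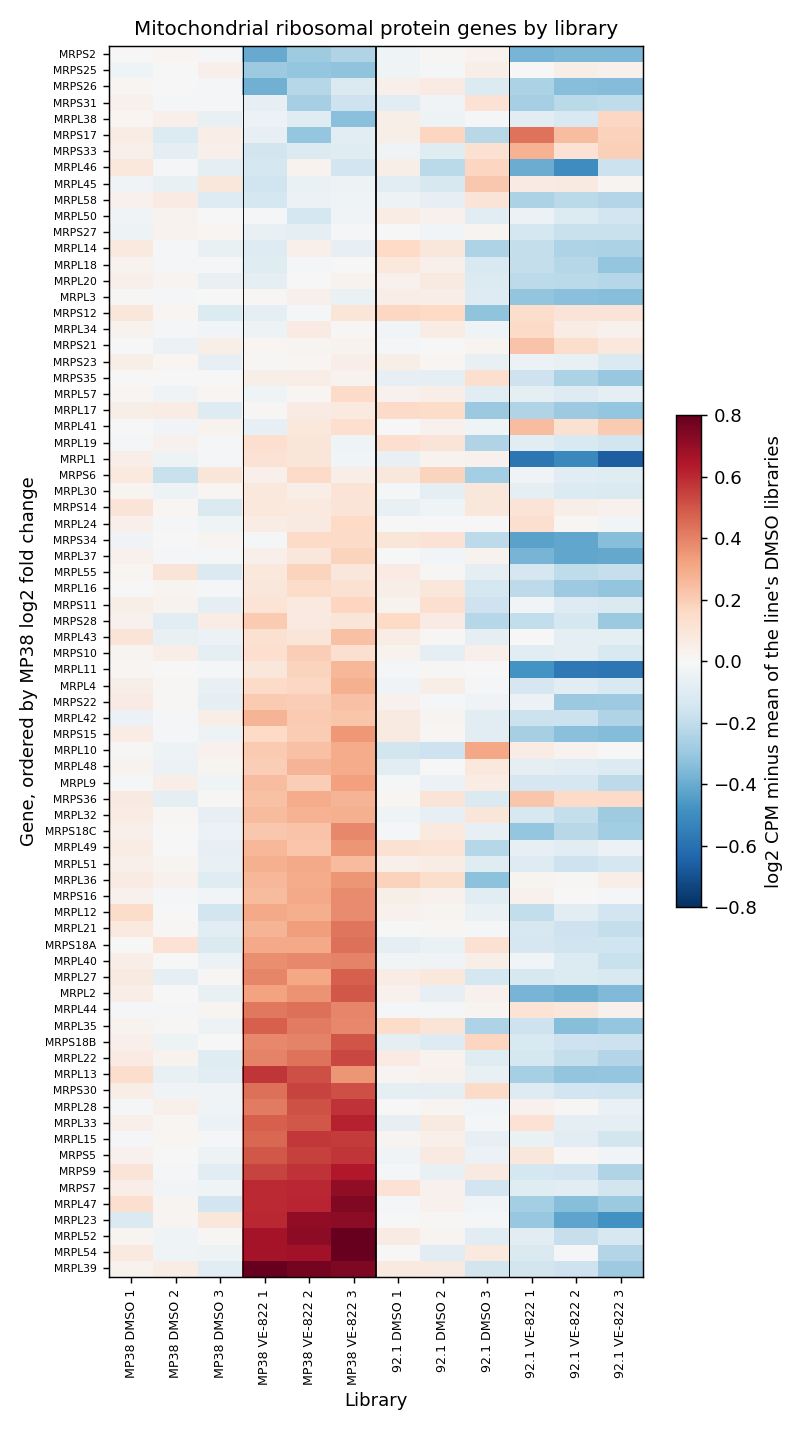
Colour gives the log2 CPM of each gene (rows, ordered by fold change in MP38) in each library (columns) minus the mean of the DMSO libraries of its line, for 76 of the 77 tested genes (MRPS24 left out), with colours saturating at 0.8 in either direction. The MP38 VE-822 columns are red from the middle row to the bottom, the 92.1 VE-822 columns are mostly blue, and 92.1 DMSO library 3 differs from its fellow controls in many rows.

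The response of the members differed between the lines when the difference itself was tested. In 1 fit of all 12 libraries, the 92.1 response minus the MP38 response was called lower for 43 of 77 members, higher for 3 and not called for 31. Of all 24958 genes tested, 18.8% were called lower and 22.1% higher, and of protein-coding genes 27.5% and 25.4%. The median difference was -0.31 over the members, against 0.11 over all genes. It came to at least 0.5 on the log2 scale, downward, in 19 of the 77 members, against 10.9% of all genes called lower at that size. Without 92.1 DMSO library 3 the 43 lower and 3 higher members kept their calls in totals of 57 and 4, and the median was -0.41, against 24.8% of all genes called lower and 24.3% higher.

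Members of the large subunit accounted for 32 of the 43, with a median of -0.38 and none higher, except 2 with library sizes alone and 1, MRPL45, without 92.1 DMSO library 3, and members of the small subunit for 11, with 3 higher and a median of -0.19. MRPL23 had the largest difference, at -1.05 ± 0.101 (SE, adjusted p = 6.13e-07). It was followed by MRPL39 at -0.95 ± 0.0993 (adjusted p = 1.46e-06), MRPL47 at -0.92 ± 0.0928 (9.96e-07), MRPL52 at -0.83 ± 0.0784 (4.45e-07) and MRPL54 at -0.82 ± 0.102 (8.27e-06). MRPL39, MRPL52 and MRPL54 rose in MP38 and were not called in 92.1 (adjusted p 0.0694, 0.120 and 0.252), and MRPL23 and MRPL47 rose in MP38 and fell in 92.1. Without 92.1 DMSO library 3, MRPL39 (-0.31, adjusted p = 1.62e-05) and MRPL52 (-0.21, adjusted p = 0.000267) were called lower in 92.1 too, and MRPL54 was not (adjusted p = 0.128). MRPL47 in 92.1 had 31.9, 32.8 and 31.5 CPM in DMSO and 26.6, 25.4 and 26.1 CPM in VE-822 (log2 fold change -0.30, adjusted p = 0.0021).

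The 3 members whose response was higher in 92.1 than in MP38 were of the small subunit. MRPS25, which fell in MP38, had 73.2, 74.1 and 77.3 CPM in DMSO and 75.0, 77.2 and 76.8 CPM in VE-822 in 92.1, with the groups overlapping, and its difference was 0.36 ± 0.0585 (adjusted p = 0.000121). MRPS33 differed by 0.34 ± 0.0860 (adjusted p = 0.00466). MRPS17, the counterpart of bacterial S17, differed by 0.47 ± 0.159 (adjusted p = 0.0279), with neither line's own change called. Its call was lost without any 1 of 6 libraries, MP38 DMSO libraries 1 and 3, MP38 VE-822 libraries 2 and 3 and 92.1 VE-822 libraries 1 and 2 (adjusted p 0.0539 to 0.118).

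Set side by side, 14 members were called higher in MP38 and lower in 92.1: MRPL2, MRPL9, MRPL11, MRPL13, MRPL16, MRPL21, MRPL22, MRPL23, MRPL32, MRPL37, MRPL42, MRPL47, MRPS15 and MRPS18C. Without 92.1 DMSO library 3 there were 33 such members, and with library sizes alone 7. The opposite pattern, lower in MP38 and higher in 92.1, had no member with TMM scaling and all libraries, and MRPS33 alone in each of those alternatives (0.23 in 92.1 without the library, adjusted p = 0.000557). MRPS2, MRPS26 and MRPS31 were lower in both lines. For MRPS2 the 92.1 values were 68.3, 70.4 and 71.4 CPM in DMSO and 54.2, 54.5 and 54.6 CPM in VE-822 (log2 fold change -0.36 ± 0.0442, adjusted p = 0.000313), and the difference between lines was -0.03 ± 0.0652 (adjusted p = 0.769), a p that does not show the responses to be equal. Another 29 were higher in MP38 and not called in 92.1, 10 were not called in MP38 and lower in 92.1, and 17 were called in neither. Without 92.1 DMSO library 3 these counts were 9, 19 and 7, and with library sizes alone 30, 5 and 23. Of all genes tested, 26.9% were called higher in MP38 and 19.6% lower in 92.1. How many of all genes had each pair of calls was not counted, so 14 of 77 cannot be set against such a share. Across the 77 members the fold changes of the lines had a Pearson r of -0.065 and a Spearman rho of -0.042, a description over genes that share the libraries of each line.

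**Figure D4:**
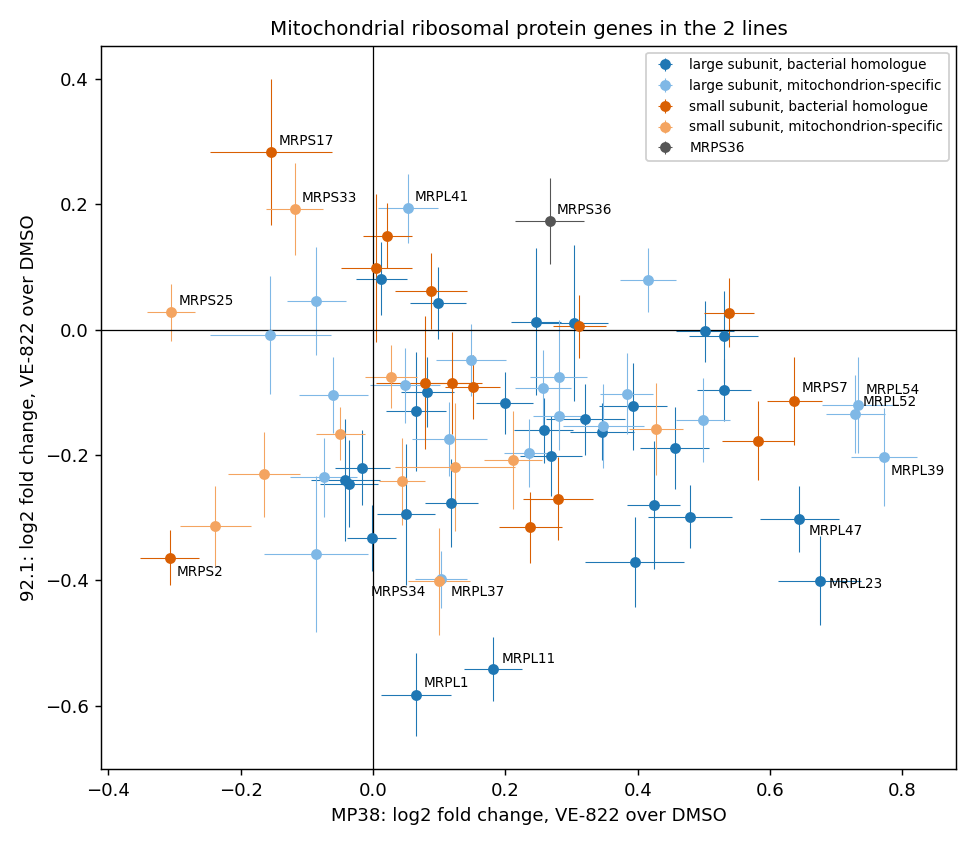
Log2 fold change of VE-822 over DMSO in MP38 (x) and 92.1 (y), 1 point per gene for 76 of the 77 tested genes, without MRPS24, coloured by subunit and origin, with bars the SE. Most points lie to the right of 0 and below 0, with MRPL39 farthest right (0.77), MRPL1 lowest (-0.58) and MRPS2 lower in both lines (-0.31 and -0.36).

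The 3 paralogues related to bacterial S18 occupy different places in the ribosome, MRPS18C the bacterial site, MRPS18B another site of the small subunit and MRPS18A the large subunit. All 3 rose in MP38: MRPS18B from 94.3 CPM ± 2.7 to 127 ± 5.71 (log2 fold change 0.43), MRPS18A from 17.8 ± 1.44 to 22.6 ± 1.27 (0.35) and MRPS18C from 21.8 ± 0.627 to 26.5 ± 1.76 (0.28). In 92.1 MRPS18C fell from 13.2, 14.0 and 12.7 CPM in DMSO to 10.7, 11.4 and 10.9 CPM in VE-822 (-0.27, adjusted p = 0.0118, and 0.0552 without VE-822 library 1). MRPS18A at -0.15 and MRPS18B at -0.16 were not called there (adjusted p 0.101 and 0.122), and without DMSO library 3 both were called (0.0191 and 0.0132).

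MRPL12, the stalk protein that is also known to bind the mitochondrial RNA polymerase, had 24.4, 22.1 and 20.0 CPM in DMSO and 27.3, 27.1 and 28.8 CPM in VE-822 in MP38 (log2 fold change 0.32 ± 0.0600, adjusted p = 0.000133). In 92.1 it had 29.0, 28.8 and 27.3 CPM in DMSO and 24.8, 26.7 and 25.6 CPM in VE-822 (-0.14, adjusted p = 0.0783, and 0.000557 without DMSO library 3). MRPS36, the member outside the ribosome, rose in MP38 from 20.0 CPM ± 1.04 to 24.1 ± 0.527 (0.27, adjusted p = 0.000188). In 92.1 its treated libraries, at 23.4, 22.4 and 22.3 CPM, also lay above the controls at 20.2, 21.5 and 18.5 CPM, without a call (0.17, adjusted p = 0.0759). The gene was called higher in 92.1 with library sizes alone (0.24, adjusted p = 0.0219), under a 5 CPM minimum (0.27, adjusted p = 0.00906) and with limma on log2(FPKM + 1) (0.23, adjusted p = 0.0470).

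Other subunits of the mitochondrial ribosome carry symbols outside the rule: DAP3, PTCD3, CHCHD1, AURKAIP1 and GADD45GIP1. In MP38 all 5 were called higher, with a median of 0.20, and 4 of 5 with library sizes alone. Of protein-coding genes, 33.6% were called higher there. GADD45GIP1 rose from 32.9 CPM ± 1.58 to 46.2 ± 4.87 (log2 fold change 0.49) and CHCHD1 from 14.2 ± 0.838 to 19.1 ± 1.52 (0.43). In 92.1 DAP3, at 0.14 ± 0.0455 (adjusted p = 0.0371), was the only one called; under RLE size factors 0 were called higher and 1 lower, and without DMSO library 3 they were 1 and 3. In the difference between lines 4 of the 5 were called lower, and with library sizes alone 3 were lower and 1 higher. Of protein-coding genes, 22.4% were called higher in 92.1, and 27.5% were called lower in the difference.

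The cytosolic ribosome's proteins lay on the other side in each line. Of protein-coding genes as a whole, 29.2% were called lower in MP38 and 22.4% higher in 92.1. In MP38, 72 of 77 cytosolic ribosomal protein genes were called lower and none higher, with a median of -0.32, for example RPLP0, a protein of the ribosomal stalk, from 3246 CPM ± 103 to 2053 ± 167. In 92.1, 47 of 77 were called higher and none lower, with a median of 0.21, for example RPS19 from 960 ± 50.1 to 1350 ± 67.2 CPM. In the difference between lines 73 were called higher and none lower, against 25.4% and 27.5% of protein-coding genes. These directions were the same under RLE size factors and with library sizes alone, and without 92.1 DMSO library 3 there were 69 higher and none lower in 92.1. Cytosolic ribosomal protein genes have many processed pseudogenes, so their counts are uncertain, whereas pseudogenes of the mitochondrial members amounted to 0.327% of the members' counts in MP38 and 0.861% in 92.1.

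**Figure D5:**
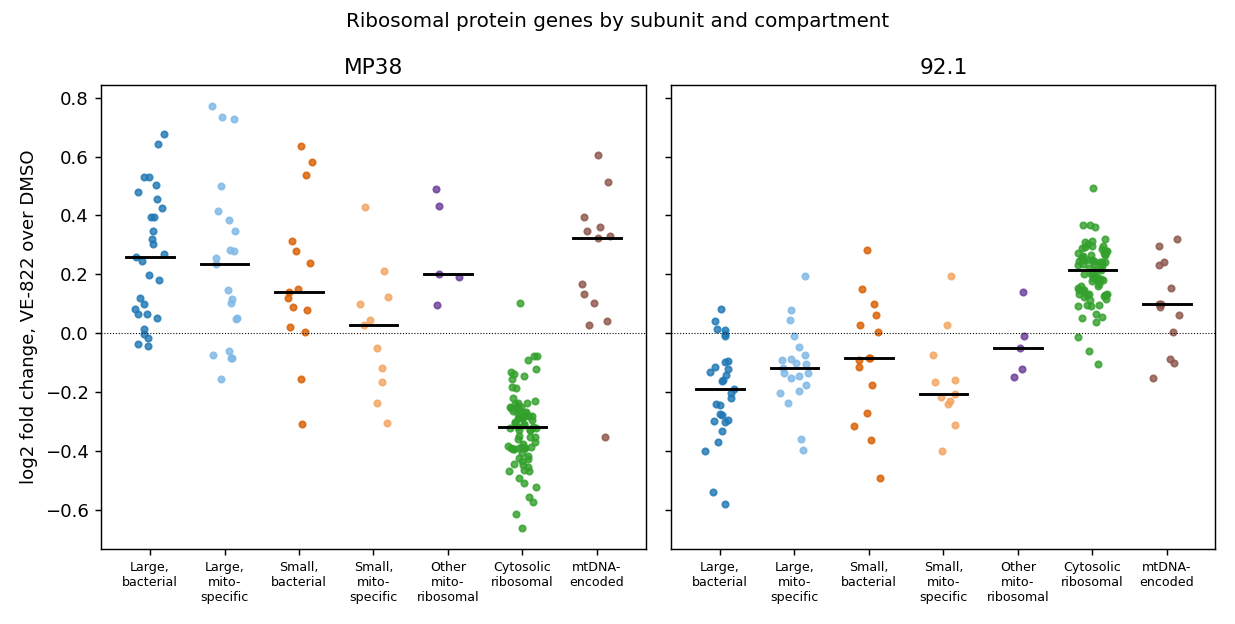
Log2 fold change of VE-822 over DMSO (y) in MP38 and 92.1 for each gene (points) by class, with a line at the class median and without MRPS36. The large subunit lies mostly above 0 in MP38 (medians 0.26 and 0.24) and below 0 in 92.1, while the cytosolic ribosomal protein genes lie at -0.32 and 0.21.

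The messenger RNAs that this ribosome translates had more increases than decreases in both lines. Of protein-coding genes as a whole, 33.6% were called higher in MP38 and 22.4% in 92.1. Of 13 mitochondrially encoded messenger RNAs 10 were called higher and 1 lower in MP38 (median 0.32), and 4 were called higher and none lower in 92.1 (median 0.10), or 6 and 3 without DMSO library 3 and 8 and 0 with library sizes alone. MT-CO1, a catalytic subunit of cytochrome oxidase, went from 12200 CPM ± 299 to 18570 ± 852 in MP38 (log2 fold change 0.61) and from 20050 ± 819 to 23720 ± 166 in 92.1 (0.24). In 92.1 the members and the messages they serve thus had medians of opposite sign. Poly(A) selection captures mitochondrial RNA unevenly, and nuclear copies of these genes make their counts uncertain.

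Genes that build and serve the mitochondrial ribosome had calls in both directions in MP38. For comparison, 33.6% of protein-coding genes were called higher and 29.2% lower there, and the tRNA synthetases below lay near those shares. Of 28 assembly factors 7 were called higher and 11 lower, with TFB1M, which methylates the small ribosomal RNA, higher (log2 fold change 0.60) and MTERF4, which acts in large-subunit assembly, lower (-0.50). Of 17 translation factors 6 were higher and 3 lower, with TACO1, the activator of MT-CO1 translation, at 0.47. Of 20 mitochondrial tRNA synthetases 8 were higher and 6 lower, and with library sizes alone 4 and 8. Of 17 genes of mitochondrial DNA expression 8 were higher and 2 lower, among them SUPV3L1, an RNA helicase of the organelle, at 0.69, and 6 and 5 with library sizes alone.

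In 92.1 these lists had more decreases than increases, except 2 of them with library sizes alone. Among the assembly factors 2 were called higher and 13 lower, among the translation factors 0 and 4, among the tRNA synthetases 0 and 11 and among the genes of mitochondrial DNA expression 1 and 7. Of protein-coding genes 22.4% were called higher and 27.4% lower, so the decreases among the translation factors were near that share. With library sizes alone the counts were 3 higher and 7 lower for the assembly factors, 3 and 2 for the translation factors, 0 and 9 for the tRNA synthetases and 3 and 3 for the genes of mitochondrial DNA expression. Without DMSO library 3 they were 3 and 16, 2 and 7, 0 and 13, and 2 and 13. Of all genes, 26.8% were higher and 29.0% lower in that fit, and 24.8% and 15.4% with library sizes alone. TFAM, which packages mitochondrial DNA and starts its transcription, fell from 136 CPM ± 2.54 to 94.5 ± 3.30 (-0.52, adjusted p = 5.1e-05).

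Among 9 regulators of mitochondrial genes, 3 were called higher and 2 lower in MP38 and 1 higher and 6 lower in 92.1 (2 and 6 without DMSO library 3). Protein-coding genes were called higher and lower at 33.6% and 29.2% in MP38 and at 22.4% and 27.4% in 92.1. GABPB1, the partner subunit of the ETS factor GABPA, rose in MP38 from 20.8 CPM ± 0.147 to 32.2 ± 1.06 (log2 fold change 0.63, adjusted p = 5.24e-10) and fell in 92.1 from 21.6 ± 0.506 to 13.6 ± 0.818 (-0.67, adjusted p = 8.98e-05). GABPA itself, which is known to bind the ETS motif, was at 0.01 in MP38 and -0.06 in 92.1 and was called in neither. YY1 fell in both, by 0.20 and 0.29 on the log2 scale (adjusted p = 0.000214 and 0.00112). PPARGC1A, a coactivator of mitochondrial genes, rose in MP38 from 7.01 CPM ± 0.356 to 13.9 ± 1.06 (0.98). Whether these levels bear on the members was not tested.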

How the data were processed

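Poly(A) RNA was measured in 12 libraries. Per the submitters' processing notes reads were handled with STAR 2.7.11a, featureCounts 2.0.6 and cutadapt 4.8 on GRCh38.p13, with FastQC 0.12.1 and MultiQC 1.7; parameters and strand use are not given in the sources used here. The authors deposited raw counts per gene, 1 table per line, and FPKM tables, whose deposited FPKM values equal the counts scaled for length and library total within 0.0005.

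The counts were analysed in R 4.3.3 with edgeR 4.0.16 (filterByExpr with minimum count 10 and minimum total 15, TMM, quasi-likelihood F test), in each line alone and, for the difference, in 1 fit of the features in both tables; p-values were Benjamini-Hochberg adjusted over all genes tested, with a threshold of 0.05. SEs come from the F statistic. The fits were tested on simulated counts. The members and gene lists were chosen with earlier results of these data known. Full values are given for, in each line, the 6 largest increases and decreases among called members whose groups do not overlap; in the difference the 5 largest and 5 smallest; the 3 highest and 3 lowest by FPKM; MRPS18A, MRPS18B, MRPS18C, MRPL12 and MRPS36; and from each list at most 3 called genes, those of smallest adjusted p. A part of these is named.

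Alternatives were RLE size factors, library sizes alone, other filters (no filter, at least 5 CPM), DESeq2 1.42.0, a robust fit, limma 3.58.1 on log2(FPKM + 1), a replicate block and leaving out each library. A planned comparison of the MRPS18 proteins was not run, since no protein sequences were used here.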

Additional observations from a re-analysis of the deposited data

Results flagged for a closer look

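The response to VE-822 differed between the lines for 46 members by a direct test of the difference in the fit of all 12 libraries. Of these, 3 had a higher and 43 a lower response in 92.1. Of all genes tested, 22.1% were called higher and 18.8% lower, and of protein-coding genes 25.4% and 27.5%. Among the members, the largest differences (92.1 response minus MP38 response, log2) were in genes of the large subunit: MRPL23 at -1.05, MRPL39 at -0.95, MRPL47 at -0.92, MRPL52 at -0.83 and MRPL54 at -0.82. In the opposite direction they were in genes of the small subunit: MRPS17 at 0.47, MRPS25 at 0.36 and MRPS33 at 0.34. Dose and line cannot be told apart in this design.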

How the results depend on the processing

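The directions held under every setting tried for each summary value over the members, and no named gene changed direction with its call. In MP38, 38 to 43 of the 43 increases and 3 to 5 of the 5 decreases kept their calls, the count of decreases being 3 to 5 when 1 library was left out. The MP38 median was 0.14 to 0.22 with 1 library left out, and the ratio of shares was 1.118 over counts outside mitochondrially encoded genes. In 92.1 the count of increases was 1 with RLE size factors, DESeq2 or the replicate block, 6 with library sizes alone, 0 with no filter, 8 among genes of at least 5 CPM, 4 with limma on FPKM, and 0 to 5 with 1 library left out. Decreases numbered 14 with library sizes alone or at least 5 CPM, 11 with limma on FPKM, and 13 to 55 with 1 library left out. The 92.1 median was -0.073, -0.048 and -0.065 under those 3 settings and -0.20 to -0.14 with 1 library left out. Over all genes 5722 were called at 5 CPM, where fewer genes were tested. In the difference between lines 6 members were called higher under the same 3 settings, with medians of -0.24, -0.19 and -0.21, and it was -0.41 (without 92.1 DMSO library 3) to -0.29 with 1 library left out. The causes were not tested. NRF1 motif matches went from 1 to 10 member promoters (14.5%) with 1 mismatch allowed, against 10.7% of protein-coding promoters under the same rule.

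Deviations from the group mean were correlated over genes between DMSO and VE-822 libraries. In 92.1 same-numbered libraries had r of 0.088, 0.088 and 0.111, above every pair with different numbers (-0.107 to 0.039). In MP38 they had r of -0.054, -0.018 and -0.102, against -0.031 to 0.076 for different numbers. Values this small do not settle whether the numbers mark pairs in 92.1, and the main fits used no pairing. With the replicate block 41 of 43 increases and 5 of 5 decreases were kept in MP38, 1 of 2 (MRPS21 was lost, adjusted p = 0.0741) and 23 of 27 in 92.1, and 3 of 3 and 43 of 43 in the difference. Depth limits the low members: MRPS24 (9 to 27 counts in MP38) had an SE of 0.407, so a change of the size seen in other members was not detectable.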
